A study of Mus musculus with 60 samples.

Results

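Gas6 counts split most of the dormant (DiD+) breast cancer cells recovered from mouse bone into cells with clear expression and cells with 0 counts. The comparison described here set 11 Gas6-positive DiD+ cells, defined by 10 or more Gas6 counts, against 18 Gas6-negative DiD+ cells, defined by 0 counts. These 29 cells were drawn from 32 DiD+ cells and from 60 sequenced cells in all. The other 3 DiD+ cells held 1 to 9 counts and entered neither group. The 28 proliferative (DiD-) cells are given beside them as a reference.

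PyMT-Bo1 is a mouse mammary carcinoma line of C57BL6 background that carried luciferase (Luc2), H2B-mApple and Thy1.1 as labels. The cells were stained with DiD, a membrane dye that each division dilutes, and were put into wild-type C57BL6 mice through the heart. Femurs and tibias of 5 mice were pooled, per the labels, and single CD45-, Thy1.1+ tumor cells with high or low DiD were sorted into wells for full-length scRNA-seq. All cells therefore shared the line, the host strain, the injection and the pool of bones. The labels separate them only by DiD, and the Gas6 count defined the split within DiD+. No label ties a cell to a mouse, so each group stood as 1 pooled sample. No p-value was computed, and differences are given as ratios of summed counts with the range obtained when any 1 cell was left out.

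Gas6 (growth arrest-specific 6) is a secreted protein that needs vitamin K-dependent carboxylation of its Gla domain. It binds the TAM receptor tyrosine kinases Tyro3, Axl and Mertk and bridges them to phosphatidylserine on dying cells or debris. The gene was found as a transcript of growth-arrested fibroblasts, and bone cells that secrete Gas6 have been linked with dormancy of disseminated tumor cells. Cell cycle genes report a different property: S phase genes encode the DNA replication machinery, and G2/M genes encode the kinases, cyclins and motor proteins of mitosis.

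Gas6 (GRCm38 chr8:13465374-13494490, minus strand) was present at 9.76 to 370 CPM (counts per 1e6 counts on mouse genes) in the 11 Gas6-positive cells, with a median of 67.6 CPM. Its counts were 1415 in cell 23, 719 in cell 43, 650 in cell 24, 380 in cell 41, 250 in cell 82, 217 in cell 76, 190 in cell 38, 163 in cell 29, 158 in cell 31, 136 in cell 21 and 36 in cell 68. Cell 68 thus lay nearest to the threshold on the inside. Just outside it were cells 19 and 80 with 4 counts each and cell 88 with 1 count. Because these counts chose the groups, they are a description and not a finding.

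Summed over cells, Gas6 was at 89.5 CPM in the Gas6-positive group, with an exact Poisson 95% interval of 86.8 to 92.2 CPM that covers counting error only. The Gas6-negative group had 0 counts among 84228500, which allows a level of up to 0.0356 CPM (3 counts). That limit also covers counting error only, and loss of Gas6 RNA before sequencing was not tested. Of the DiD- cells, 27 held 0 counts and cell 85 held 1.

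**Figure D1:**
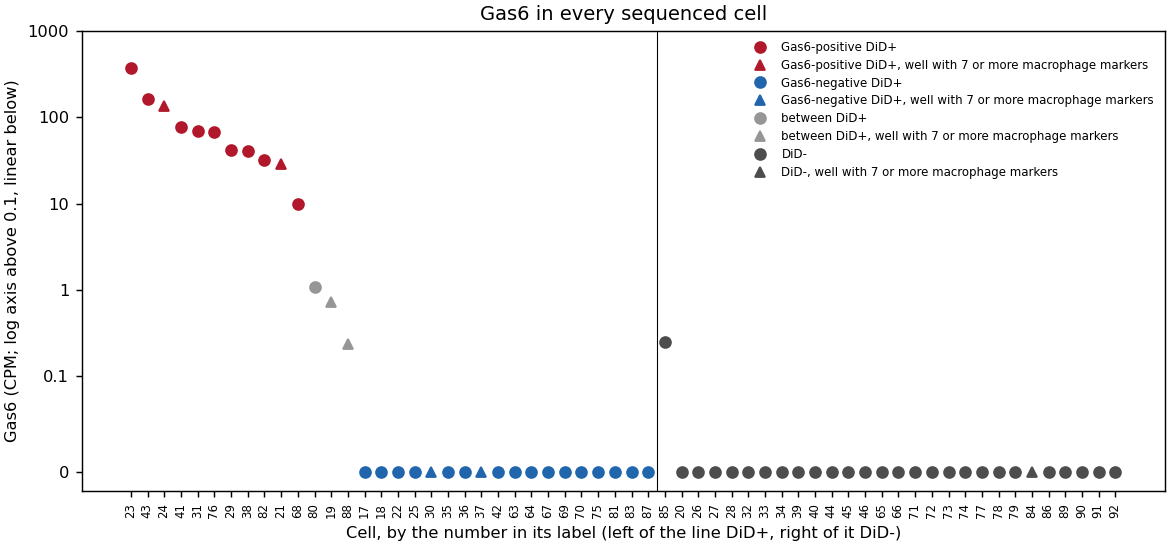
Gas6 level (CPM, log axis above 0.1 and linear below) in each of the 60 cells, named by the number in its label, with DiD+ cells left of the line and DiD- cells right of it. Triangles mark wells with 7 or more of 13 macrophage markers. The 11 Gas6-positive cells lie between 9.76 and 370 CPM, and the 3 cells between the groups lie near 1 CPM or below it.

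Depth was alike in both groups. Gas6-positive cells had 2276790 to 7794220 counts on mouse genes (median 4403470) and 6024 to 9337 detected genes. Gas6-negative cells had 3506160 to 5961680 counts (median 4830000) and 6323 to 10456 detected genes. Mouse counts per spike-in count were 14.3 to 74.1 (median 52.7) in Gas6-positive cells and 23.9 to 178 (median 61.3) in Gas6-negative cells. Of all DiD+ cells, cell 68 had the lowest such value, the highest spike-in share (6.53%) and the fewest detected genes (6024). All Gas6-positive cells held Luc2 counts (90 to 795). Cell 30 of the Gas6-negative group had 0 counts for all 4 added transgenes, so its label as a tumor cell is not borne out by them. Cell 35 of that group held 1 Luc2 count and had counts for 2 of the 4 transgenes. Ptprc, the gene for CD45, had 121 counts in cell 21, 6 in cell 35, 2 each in cells 30 and 37 and 1 in cell 24. It had 0 counts in the other cells of both groups. Of the 8 epithelial tumor markers, Krt8 was present in every cell of both groups at 10 counts or more, while Epcam, Krt7, Krt19 and Cldn4 were at 0 throughout.

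Macrophage RNA was present in wells of both groups. Cells 21 and 24 (Gas6-positive) and cell 37 (Gas6-negative) held all 13 macrophage markers at 10 counts or more, and cell 30 held 11 of them. Their summed macrophage markers reached 8001, 19077, 8596 and 1461 CPM, against 0 to 177 CPM in the other Gas6-positive cells and 0 to 113 CPM in the other Gas6-negative cells. Macrophages are themselves known to make Gas6, and cells 21 and 24 had 29.03 and 135 CPM of it. The remaining 9 Gas6-positive cells had 9.76 to 370 CPM of Gas6 and held 0 to 3 of the 13 macrophage markers. The remaining Gas6-negative cells held 0 to 6 of these markers, with 6 in cell 69 (113 CPM), which is kept in all comparisons. Cell 29 (Gas6-positive) held 4 of 5 megakaryocyte and platelet markers, and of the 7 erythroid markers cells 30 and 37 (Gas6-negative) held 6 and 5, while cell 42 (Gas6-negative) and cells 21 and 38 (Gas6-positive) held 2 each. Wells with 7 or more of the 13 macrophage markers are called macrophage wells below. In the groups compared these are cells 21, 24, 30 and 37. Cells 19 and 88, DiD+ cells of neither group, held 13 and 12 markers, and DiD- cell 84 held 13. List medians are also given without cells 21, 24, 30 and 37, as are the single genes that turn on them. Beyond those values, the part of other cells' RNA in the differences was not tested.

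The receptors did not follow their ligand. Axl, the receptor with the highest affinity for Gas6, was present in every cell. Its lowest, median and highest levels were 27.7, 306 and 644 CPM in Gas6-positive cells and 63.2, 485 and 705 CPM in Gas6-negative cells, so the groups overlapped almost fully. The summed Axl level was 322 CPM (317 to 327) against 400 CPM (396 to 405), a log2 ratio of -0.31 (-0.48 to -0.19 with any 1 cell left out), and the DiD- level was 683 CPM. Mertk, the receptor of phagocytes, was at 15.5 against 5.90 CPM, but cell 21, a macrophage well, held 99.9% of the Gas6-positive counts. The Mertk ratio was 1.26 with all cells and -2.55 without the macrophage wells. Tyro3 was counted in 1 Gas6-positive cell and in 4 Gas6-negative cells.

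Other TAM ligands showed small differences. Pros1, the gene for protein S, which activates Tyro3 and Mertk, was counted in all 29 cells at 294 against 196 CPM. Its log2 ratio was 0.58 (0.48 to 0.75), and 0.77 without the macrophage wells. Lgals3, which encodes galectin-3 and has been described as a Mertk ligand, was at 861 against 1088 CPM (-0.34). Over the 5 measurable members of the axis other than Gas6, the median log2 ratio was 0.38 with all cells and -0.47 without the macrophage wells, beside a median of 0.00 over all 12645 genes with 1 CPM or more.

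The vitamin K list holds the enzymes of the vitamin K cycle and the other Gla proteins, and Mgp had its highest ratio. Of its 9 measurable genes, 8 were higher in the Gas6-positive group and 3 of these lay past 2-fold, with a median log2 ratio of 0.47 (0.31 to 0.58), or 0.60 without the macrophage wells. Among all genes with 1 CPM or more, 14.4% lay past 2-fold higher and 12.9% past 2-fold lower in the Gas6-positive group (13.3% and 15.3% without the macrophage wells). The 3 genes were Mgp, Vkorc1l1 (25.3 against 6.77 CPM), a vitamin K epoxide reductase, and Prrg2 (11.8 against 3.17 CPM), a membrane Gla protein. Ggcx, the carboxylase itself, was at 31.8 against 27.8 CPM. Prrg4 was lower, at 9.02 against 19.2 CPM.

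Mgp (matrix Gla protein, an inhibitor of calcification; chr6:136872435-136875823) was the clearest companion of Gas6. It was present at 136 to 5151 CPM in Gas6-positive cells, with a median of 1454 CPM. In Gas6-negative cells its lowest, median and highest levels were 1.43, 393 and 1038 CPM. In 8 of 11 Gas6-positive cells Mgp exceeded the highest Gas6-negative cell, and no Gas6-negative cell reached the Gas6-positive median. The other 3 Gas6-positive cells were cell 23 with 998 CPM and cell 43 with 972 CPM, which held the most Gas6, and cell 24, a macrophage well, with 136 CPM. The summed Mgp level was 2110 CPM (2097 to 2123) against 415 CPM (411 to 420), a log2 ratio of 2.34 (2.14 to 2.50), and 2.50 without the macrophage wells. DiD- cells had 231 CPM.

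Cell cycle genes were lower in the Gas6-positive group, and most plainly those of G2/M. All 55 G2/M genes were lower and 45 lay past 2-fold lower (81.8%, against the 12.9% given above for all genes), with a median log2 ratio of -1.69 (-2.0 to -1.39). Without the macrophage wells all 55 were again lower and 44 lay past 2-fold, against 15.3% of all genes, with a median of -1.90. The mitotic cyclin Ccnb1 was at 82.6 against 636 CPM, a log2 ratio of -2.93 (-3.71 to -2.57). Its partner kinase Cdk1 was at 112 against 391 CPM (-1.80). The proliferation marker Mki67 was at 23.8 against 98.8 CPM (-2.01).

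Among other mitotic genes, Top2a, which untangles replicated chromosomes, was at 58.4 against 203 CPM. Aurka, a spindle pole kinase, was at 10.2 against 100.1 CPM, and Ube2c, the ubiquitin-conjugating enzyme of the anaphase-promoting complex, at 12.01 against 197 CPM. Cell 82 stood apart in these sums: it supplied 90.6% of the Top2a counts and 78.8% of the Cdk1 counts of the Gas6-positive group. Without cell 82 the log2 ratios were -4.75 for Top2a and -3.75 for Cdk1.

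S phase genes differed less. Of 45 genes, 31 were lower and 7 lay past 2-fold lower (15.6%, against 12.9% of all genes), with a median log2 ratio of -0.36. That median rested on single cells: it was -1.55 without cell 82 of the Gas6-positive group and -0.03 without cell 25 of the Gas6-negative group. It was -0.54 without the macrophage wells and 1.04 when only cells with label numbers above 50 (3 Gas6-positive, among them cell 82) were used. Exo1, a DNA repair exonuclease, was at 2.68 against 48.6 CPM, all of the former in cell 82. Mcm3, a subunit of the replicative helicase, was at 85.4 against 117 CPM (-0.45), and Pcna, the sliding clamp, at 262 against 237 CPM (0.14).

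Cell by cell, the groups differed in how many cells were high rather than in every cell. The summed G2/M list was at 1302 to 7982 CPM (median 2064) in Gas6-positive cells and 1741 to 35529 CPM (median 3702) in Gas6-negative cells. The summed S phase list was at 526 to 13254 CPM (median 1457) and 413 to 15370 CPM (median 1875). With the DiD- median of each list as the mark, only cell 82 of 11 Gas6-positive cells lay above either mark, against 10 of 18 Gas6-negative cells and 21 of 28 DiD- cells. Above the G2/M mark of 7627 CPM lay 1 of 11 Gas6-positive cells (9.09%, exact binomial 95% interval 0.23 to 41.3%) and 7 of 18 Gas6-negative cells (38.9%, 17.3 to 64.3%). These intervals overlap. They take each cell as an independent draw, which the pooled bones do not assure, so they do not test the groups against each other. The other 8 Gas6-negative cells were at 2036 CPM or less for S phase and 2185 CPM or less for G2/M, so the Gas6-negative group held cells low for both lists as well.

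**Figure D2:**
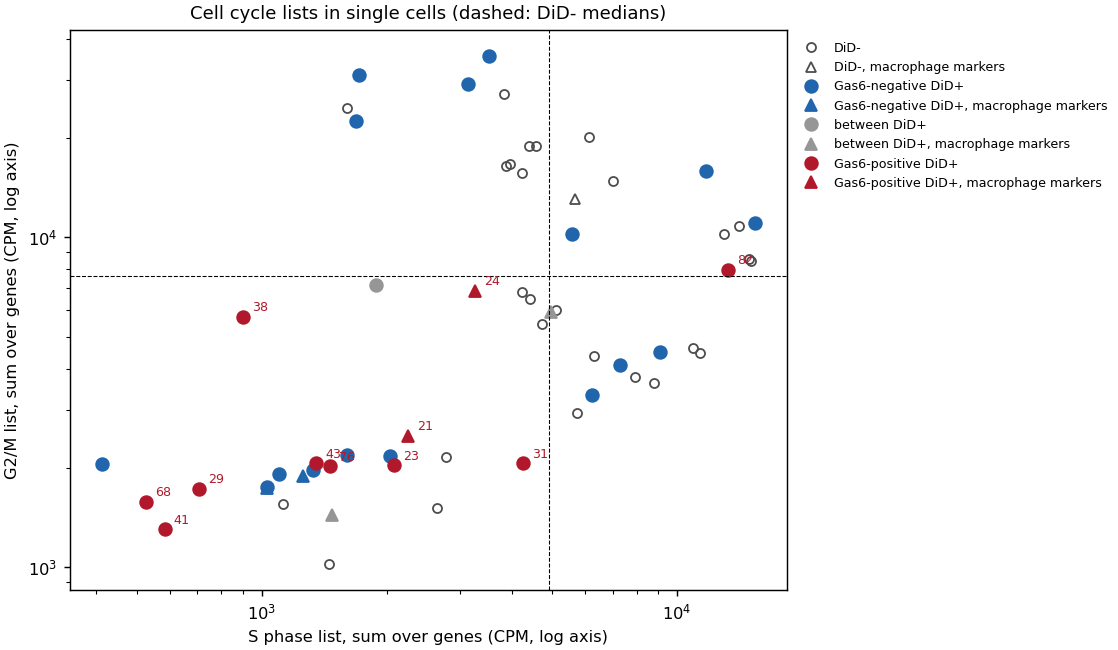
Summed S phase genes (x axis, CPM, log) against summed G2/M genes (y axis, CPM, log) in single cells; dashed lines are the DiD- medians of 4921 and 7627 CPM, triangles are macrophage wells and Gas6-positive cells carry their label number. Among Gas6-positive cells only cell 82 lies above a dashed line, while 10 of 18 Gas6-negative cells lie above at least 1 of them.

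The median over genes that govern entry into the cycle did not share that difference, though some single members were lower. The G1 list of cyclins and kinases had a median log2 ratio of -0.14 over 14 genes (-0.50 to 0.00), or -0.10 without the macrophage wells. Ccnd1, the cyclin of early G1, was at 150 against 149 CPM, and its kinase Cdk4 at 557 against 571 CPM. Ccna2 (76.8 against 243 CPM) and Cdk2 (19.7 against 63.3 CPM) were lower. On this G1 list 1 gene lay past 2-fold higher and 3 past 2-fold lower (7.14% and 21.4%, against 14.4% and 12.9% of all genes). CDK inhibitors and other quiescence genes had a median of 0.02 over 22 genes, or 0.28 without the macrophage wells. Of these, 1 lay past 2-fold higher and 2 past 2-fold lower (4.55% and 9.09%, against 14.4% and 12.9% of all genes). Cdkn1a, the gene for p21, was at 915 against 611 CPM (0.58, 0.37 to 0.90). Btg2, an antiproliferative gene, was lower, at 91.6 against 206 CPM (-1.16, -1.38 to -0.81).

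The study named 11 further dormancy genes that were higher in DiD+ than in DiD- cells of these data. For some it also cited earlier reports from other cancers, and for some it measured separately sorted cells by qRT-PCR. Gas6 was named on these same cells as well. Such a choice can favor genes that are high in the DiD+ cells least like DiD- cells. The list is therefore not independent evidence of a dormancy direction. Of the 11, 10 were higher in the Gas6-positive group and 7 lay past 2-fold (63.6%, against 14.4% of all genes), with a median log2 ratio of 1.53 (1.12 without cell 68 to 1.96 without cell 22). Without the macrophage wells 6 lay past 2-fold (54.5%, against 13.3% of all genes) and the median was 1.68. With 10 counts taken as the mark of presence, the number of these genes present per cell was 3 to 9 in Gas6-positive cells (median 6), 1 to 9 in Gas6-negative cells (median 5.5) and 1 to 7 in DiD- cells (median 3). Without the macrophage wells it was 4 to 9 (median 7) in Gas6-positive cells and 1 to 9 (median 5.5) in Gas6-negative cells. The number present per cell thus overlapped between the groups, while the presence of single genes differed in both directions. Postn was present in 6 of 11 Gas6-positive and 1 of 18 Gas6-negative cells, and Nr2f1 in 6 of 11 and 14 of 18.

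Postn (periostin, a matricellular protein of bone and tumor stroma; chr3:54361109-54391037) was carried by a subset. It was at 2714 CPM in cell 29, 2609 in cell 68, 2016 in cell 41, 1198 in cell 82, 892 in cell 31 and 89.7 in cell 38, and at 0 in the other 5 Gas6-positive cells. Among Gas6-negative cells it reached 199 CPM in cell 37, a macrophage well, and under 1 CPM elsewhere. The summed Postn level was 873 CPM (865 to 882) against 11.4 CPM (10.7 to 12.1), a log2 ratio of 6.14 (5.84 to 9.72) that was 10.03 without the macrophage wells, and cell 37 held 99.7% of the Gas6-negative counts. The cells with the most Gas6, 23 and 43, were among those with 0 Postn counts.

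Ogn (osteoglycin, a small leucine-rich proteoglycan) was at 143 against 20.8 CPM. It was highest in cell 68 (1224 CPM), followed by cells 23 (382 CPM) and 76 (232 CPM), and it was present in 6 of 11 and 5 of 18 cells. Cell 68 held 65.7% of the Gas6-positive counts, and the log2 ratio of 2.72 was 1.31 without it. Pdgfrb, a receptor of mesenchymal growth factors, was at 134 against 22.97 CPM (2.49, 2.12 to 3.20), with 748 CPM in cell 31, 378 in cell 41 and 331 in cell 29. It was present at 10 counts or more in 9 of 11 Gas6-positive and 9 of 18 Gas6-negative cells.

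A pair of retinoid genes on the list was higher in sum but present in only part of the cells of either group. Aldh1a1, which makes retinoic acid, was at 77.1 against 13.3 CPM (2.45, 1.97 to 2.81) and was present in 5 of 11 and 5 of 18 cells. Its highest Gas6-positive levels were 297 CPM in cell 43 and 217 CPM in cell 29, and the highest Gas6-negative level was 61.1 CPM. It had 0 counts in all DiD- cells. Dhrs3, which turns retinaldehyde back into retinol, was at 48.4 against 16.1 CPM, a ratio of 1.53 that was 0.63 without cell 68.

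The other 5 genes of the list gave smaller or unstable differences. Thbs1 (thrombospondin-1) was at 91.3 against 44.9 CPM, and its ratio of 1.01 was 0.52 without cell 29 and -0.37 when cells were scaled by their spike-ins. Irf7, an interferon regulatory factor, was at 76.9 against 42.5 CPM (0.84), but cell 68 held 65.8% of the Gas6-positive counts and the ratio was -0.56 without it. Mme (neprilysin, 47.5 against 40.6 CPM) and Nr2f1 (a nuclear receptor, 22.3 against 19.1 CPM) were nearly level. Bhlhe41, a circadian repressor, was at 2.47 against 5.57 CPM (-0.92) and was present in 2 of 11 against 9 of 18 cells.

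**Figure D3:**
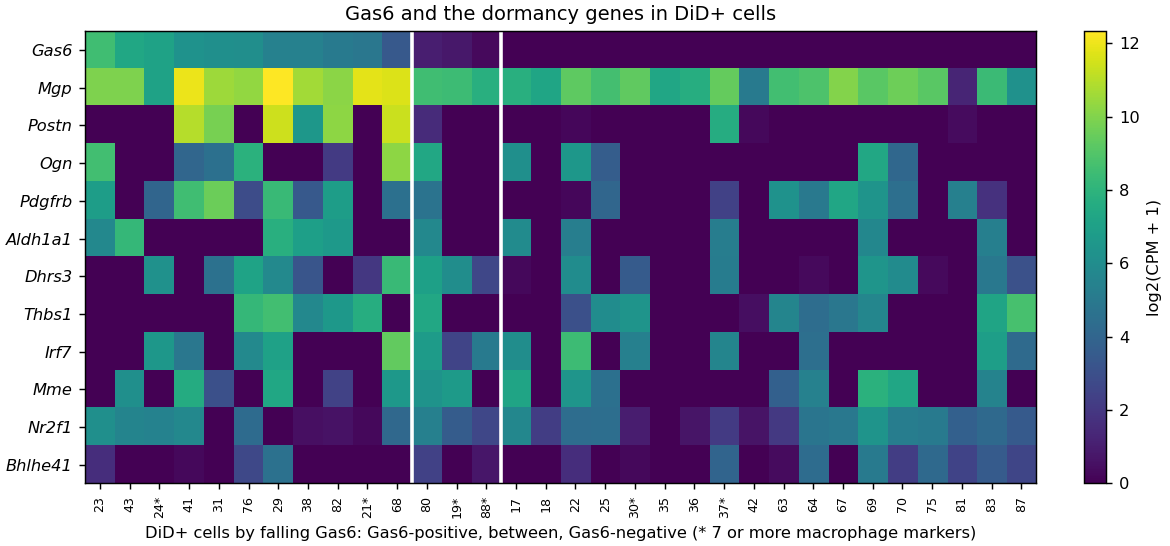
Level of Gas6 and of the study's 11 dormancy genes (rows; log2(CPM + 1), color scale) in the 32 DiD+ cells, with cells in columns by falling Gas6 and macrophage wells starred; white lines separate Gas6-positive cells, the 3 cells between and Gas6-negative cells. Mgp is bright in nearly all Gas6-positive cells, while Postn is at 0 in 5 of 11 of them.

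Genes tied to dormancy in other work, 26 of them measurable, had a median log2 ratio of 0.51 (0.43 to 0.60), or 0.66 without the macrophage wells, with 8 past 2-fold higher and 4 past 2-fold lower (30.8% and 15.4%, against 14.4% and 12.9% of all genes). Spp1 (osteopontin) was at 10802 against 3240 CPM (1.74, 1.37 to 2.27) and was present in every cell. The summed list, which includes Spp1, was at 32217, 34955, 34069 and 16586.5 CPM in cells 29, 31, 41 and 82. It was at 3524 to 7940 CPM in the other Gas6-positive cells and at 1643 to 24667 CPM in Gas6-negative cells. Timp3, an inhibitor of metalloproteinases, was at 52.1 against 6.27 CPM (2.87), and 1 Gas6-negative cell held all counts of that group. Vcam1, an adhesion molecule, was at 483 against 171 CPM (1.496), and its ratio was 0.80 without cell 21. The kinases Mapk14 (p38 alpha, 31.5 against 77.1 CPM) and Map2k4 (45.8 against 136 CPM) were lower, as was Fbxw7, a ubiquitin ligase subunit that targets cyclin E and Myc (2.05 against 12.5 CPM).

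Many single matrix genes were higher in the Gas6-positive group, while their summed level per cell overlapped widely. The summed list was at 3305 to 19536 CPM (median 5874) in Gas6-positive cells. In Gas6-negative cells it was at 1239 to 15595 CPM (median 5182). Of 24 collagens and other matrix genes, 15 lay past 2-fold higher and 1 past 2-fold lower (62.5% and 4.17%, against 14.4% and 12.9% of all genes), with a median log2 ratio of 1.46. That median was 0.66 without cell 41 and 1.78 without the macrophage wells. Col5a1, a chain of fibrillar collagen V, was counted in all 11 Gas6-positive cells at 34.2 to 566 CPM, with 169 against 40.2 CPM in sum (2.04, 1.83 to 2.30). Sparc, a collagen-binding glycoprotein of bone, was in every cell at 2328 against 1087 CPM, and its ratio of 1.10 was 0.48 without cell 41. Col3a1 (524 against 41.1 CPM) drew 73.8% of its Gas6-positive counts from cell 41. Fn1 (fibronectin) was at 2519 against 3013 CPM, so the difference was not common to all abundant matrix genes.

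Several matrix genes had 0 counts in the Gas6-negative group. Col6a3, a chain of collagen VI, was at 53.8 CPM in the Gas6-positive group but was counted in only 3 cells. Dcn (decorin, 7.61 CPM) was likewise counted in 3 Gas6-positive cells. All 6 measurable small leucine-rich proteoglycans, which bind collagen and growth factors, lay past 2-fold higher (14.4% of all genes did), with a median log2 ratio of 2.91 (1.90 without cell 68 to 3.25). The median was 3.07 with the genes at 0 set to the 3-count floor and 3.13 without the macrophage wells. Prelp was at 83.2 against 5.25 CPM, with 161.6 to 242.5 CPM in cells 23, 29, 38, 68 and 76 and at most 40.8 CPM in any Gas6-negative cell. The summed level of these proteoglycans was at 1805 CPM in cell 68, so that cell weighed on this list.

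Matricellular proteins, which signal from the matrix, had a median log2 ratio of 1.12 (0.82 to 1.42) over 14 genes, or 1.63 without the macrophage wells. Of the 14, 9 lay past 2-fold higher and 0 past 2-fold lower (64.3% and 0%, against 14.4% and 12.9% of all genes). The list overlaps the lists above through Postn, Thbs1, Spp1, Sparc and Tnc. Ccn5, a growth-inhibitory CCN protein, was at 509 against 19.3 CPM, and cells 68 and 31 had 3773 and 2759 CPM of it. Ccn1 (2447 against 2900 CPM) and Ccn2 (147 against 145 CPM), targets of YAP, were near level.

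The retinoid list, which includes Aldh1a1 and Dhrs3, was higher in the median, at a log2 ratio of 0.87 (0.55 to 1.18), or 1.05 without the macrophage wells. Of 12 genes, 6 lay past 2-fold higher and 1 past 2-fold lower (50% and 8.33%, against 14.4% and 12.9% of all genes). Stra6, the retinol uptake receptor, was at 34.4 CPM in 3 Gas6-positive cells and at 0 in the Gas6-negative and DiD- cells. Crabp1 (72.3 against 1.00 CPM) came from cell 41 alone. In the other direction, Dhrs9, a retinol dehydrogenase, was at 0.60 against 35.3 CPM (-4.50, -5.15 to -4.27), counted in 2 of 11 and 13 of 18 cells, with 65.2 CPM in DiD- cells.

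Interferon-response genes were higher in sum, and cells 68 and 21 stood apart. Of 29 genes, 16 lay past 2-fold higher and 3 past 2-fold lower (55.2% and 10.3%, against 14.4% and 12.9% of all genes), with a median log2 ratio of 1.15 (0.80 to 1.54). The summed list was at 9851 CPM in cell 68 and 4809 CPM in cell 21, against 304 to 2174 CPM in the other Gas6-positive cells and 161 to 1956 CPM in the Gas6-negative cells. Without the macrophage wells the median was 1.10, and 0.13 when cell 68 was left out as well. Class I and II antigen presentation genes had a median of 0.51 over 19 genes, or 0.07 without cell 68 and 0.66 without the macrophage wells.

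**Figure D4:**
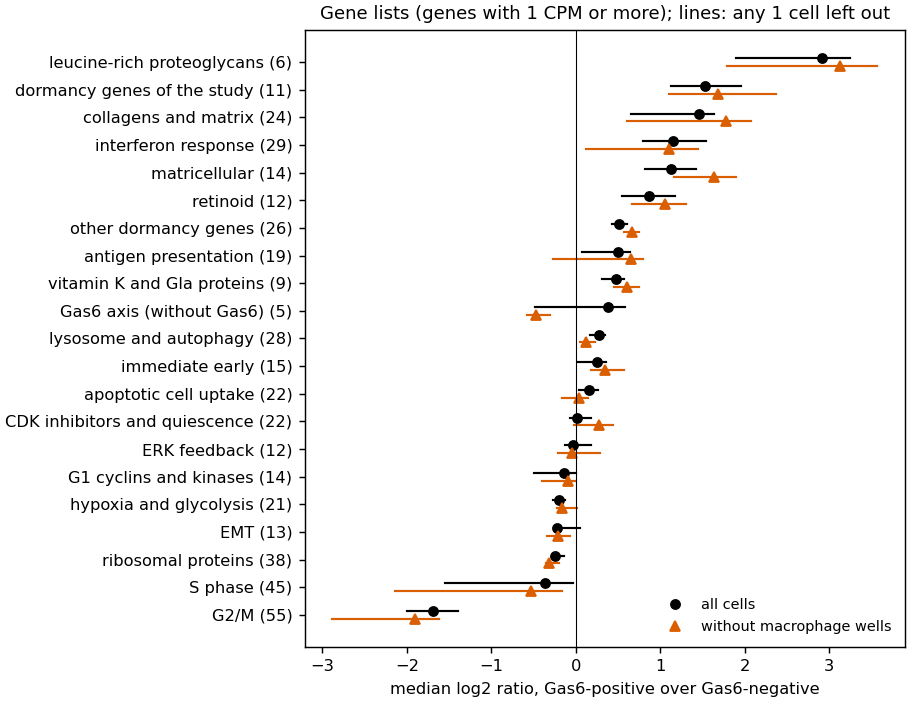
Median log2 ratio of Gas6-positive over Gas6-negative cells (x axis) for the 21 pathway and cell cycle lists drawn, with the number of genes at 1 CPM or more in parentheses; circles are all cells, triangles are without the macrophage wells, and lines span the values with any 1 cell left out. Among these lists, with all cells, the G2/M list (-1.69) lies farthest to the left and the leucine-rich proteoglycans (2.91) farthest to the right, and the S phase list reaches from -1.55 to -0.03.

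Across the transcriptome, 7833 genes reached 10 CPM in either group and were counted in at least as many cells of the higher group as lacked them. Of these, 451 were past 2-fold higher (5.76%, Gas6 included) and 585 past 2-fold lower (7.47%) in the Gas6-positive group. The ratio stayed past 2-fold with any 1 cell left out for 176 of the former (2.25%) and 360 of the latter (4.6%). Without the macrophage wells, 544 of 7857 genes were past 2-fold higher (6.92%) and 777 lower (9.89%), of which 211 (2.69%) and 476 (6.06%) stayed so with any 1 cell left out. With no replicate of either group, the share that would arise between any pair of groups of these sizes was not tested.

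Among genes that kept a 2-fold difference with any 1 cell left out, the largest positive ratio after leaving Gas6 aside belonged to F13a1 (coagulation factor XIII A chain, a transglutaminase that crosslinks fibrin and matrix; chr13:36867178-37050244). It was counted in 8 of 11 Gas6-positive cells and in 0 of 18 Gas6-negative cells. It was at 494 CPM in cell 24 and 425 CPM in cell 82, then at 177, 40.7, 37.2, 12.5, 11.9 and 2.13 CPM in cells 31, 43, 41, 68, 29 and 21. The summed F13a1 level of 136 CPM (133 to 139) was at least 3820-fold higher than in the Gas6-negative group, taking 3 counts over that group as its limit. The log2 ratio was 7.10 with all cells and 6.77 without the macrophage wells, and DiD- cells had 1.11 CPM. F13a1 is also a gene of macrophages and platelets, and cells 21, 24 and 29 hold markers of those cell types. Cells 31, 41, 43, 68 and 82 held at most 3 macrophage markers. Of the 5 megakaryocyte and platelet markers, cells 31 and 82 held 1 each and cells 41, 43 and 68 held 0. Cell 82 held 50.5% of the Gas6-positive F13a1 counts.

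The 14 next genes by size were Postn, Clmp, Cxcl10, Ccn5, Prelp, Arel1, Col3a1, Il33, Gdpd2, Sod3, Parp14, Antxr1, Tchp and Gadd45a. Il33, an alarmin cytokine, was at 722 against 65.5 CPM (3.44, 2.94 to 4.07), with 2344 CPM in cell 41, 1835 in cell 82 and 1311 in cell 31. The chemokine Cxcl10 was at 209 against 6.15 CPM, and cell 68 held 70.7% of that. Sod3, the extracellular superoxide dismutase, was at 85.01 against 9.43 CPM (3.04). Gadd45a, a growth arrest and DNA damage gene, was at 167 against 20.97 CPM, with 1032 CPM in cell 41. Each of these 14 genes was counted in 6 to 8 of the 11 Gas6-positive cells, so none marked the whole group.

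The most negative ratio under the same condition belonged to Acsbg1, an acyl-CoA synthetase. It was counted in 1 of 11 Gas6-positive cells (14.1 CPM in cell 31) and in 14 of 18 Gas6-negative cells, whose median was 103 CPM and highest 480 CPM. The summed level was 0.66 against 121 CPM (-6.20, -6.94 to -5.92), and DiD- cells, all 28 of which held counts, had 205 CPM. Itgb7, an integrin beta chain, followed at 1.203 against 116 CPM (-5.73), with 185 CPM in DiD- cells. For both genes the Gas6-negative level lay nearer to the DiD- level.

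The other 13 of the 15 lowest were Kif18b, Dhrs9, Samd10, Pkia, Tent5b, Arhgap11a, Mtr, Eri2, Prdm16, Slc22a4, Katnal1, Ube2c and Miga1. Kif18b, a mitotic kinesin, had 0 counts in the Gas6-positive group and 39.8 CPM in 9 Gas6-negative cells, at least 639-fold lower by the same 3-count limit. Mtr, methionine synthase, was at 0.10 against 21.2 CPM. Samd10 (20.4 CPM), Pkia (19.8 CPM), Katnal1 (14.9 CPM) and Miga1 (14.2 CPM) also had 0 counts in every Gas6-positive cell. Kif18b, Ube2c and Arhgap11a act in cell division.

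**Figure D5:**
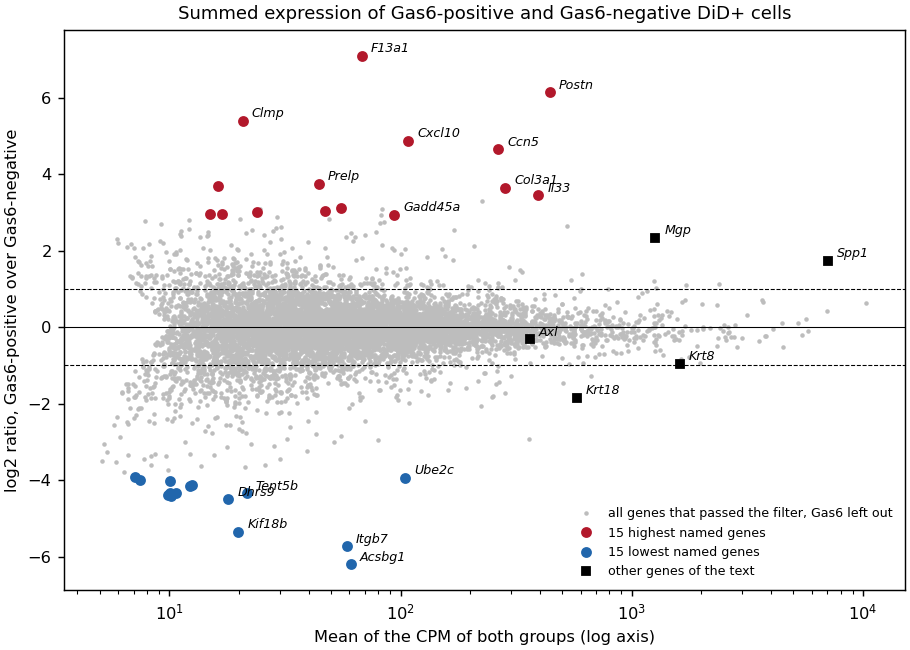
Log2 ratio of Gas6-positive over Gas6-negative cells (y axis) against the mean CPM of both groups (x axis, log) for the genes that passed the filter, with the 15 highest and 15 lowest named genes colored, other genes of the text as squares and dashed lines at 2-fold. F13a1 (7.10) and Postn (6.14) are at the top, Acsbg1 (-6.20) and Itgb7 (-5.73) at the bottom, and Axl (-0.31) near 0.

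The same rule without the macrophage wells added 10 higher genes, among them Islr (118 against 0 CPM, at least 3303-fold), an immunoglobulin-family protein of mesenchymal cells, C1s1 (41.9 against 0 CPM, at least 1176-fold), a complement protease, and Spry1, a feedback inhibitor of ERK signaling. Islr and C1s1 were each counted in 5 Gas6-positive cells. Spry1 was at 291 against 49.3 CPM, a log2 ratio of 2.54 that was 3.28 without those wells. Serpine2, a protease inhibitor, was at 868 against 15.6 CPM, but cell 41 held 82.7% of it. The remaining 6 were Tmem47, Iigp1, Fhl1, Sparcl1, Spon2 and Pqlc1. The 10 lower genes added were Wdr4, Arc, Dlgap5, Dhrs13, Vdr, Pthlh, Nsl1, Il2rg, Fbxo34 and Aasdh. Arc, an immediate early gene, had 0 counts in the Gas6-positive group and was counted in 8 Gas6-negative cells (45.7 CPM).

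Keratins of the simple epithelial type were lower in Gas6-positive cells. Krt18 ranged from 0 to 763 CPM (median 131) in Gas6-positive cells and from 0 to 1949 CPM (median 815) in Gas6-negative cells, and 14 of 18 Gas6-negative cells exceeded the Gas6-positive median. Its sums were 251 against 904 CPM (-1.85, -2.07 to -1.64), with 1578 CPM in DiD- cells. Krt8, its partner, was at 1100 against 2126 CPM (-0.95), or -1.50 without the macrophage wells, with 3395 CPM in DiD- cells. The mesenchymal filament Vim was near level, at 3470 against 4060 CPM (-0.23). Markers of mesenchymal stromal cells had a median of 0.11 over 7 genes (-0.72 without cell 82 to 1.21 without cell 37), with 2 past 2-fold higher and 2 lower (28.6% each). Without the macrophage wells the median was 0.91 over 5 genes, with 2 past 2-fold higher and 0 lower (40% and 0%, against 13.3% and 15.3% of all genes). With all cells, 4 of these markers were higher in the Gas6-positive group and 3 lower. The highest log2 ratio was that of Pdgfra (1.76, or 1.90 without the macrophage wells). The lowest with all cells was that of Grem1 (-1.34), and Lepr, Adipoq and Ebf3 were at 0 in both groups. The part of stromal cell RNA in the matrix genes was not tested.

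Ranked by Spearman correlation with the Gas6 level over the 26 DiD+ cells outside macrophage wells, Mgp was first of 8388 genes (rho 0.73). It was followed by Mvp (0.69), the major vault protein, Smg6 (0.68), an endonuclease of nonsense-mediated decay, F13a1 (0.68), Cd9 (0.67), a tetraspanin, and Rnf130 (0.67). Traf4, Sparcl1, Parp8 and Plscr3 completed the first 10, with rho of 0.65 to 0.64. Postn ranked 69 (0.49), Axl 7502 (-0.31) and Krt8 8359 (-0.56). The cells share a plate protocol and many hold 0 Gas6 counts, so these correlations mostly restate the split and are a description without a p-value.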

How the data were processed

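Single PyMT-Bo1 cells were sequenced after SMARTer v4 cDNA synthesis with ERCC spike-ins and Nextera XT library preparation. Per the labels and the submitters' processing notes, the authors trimmed reads, aligned them with STAR to GRCm38/mm10 supplemented with ERCC and transgene sequences, and deposited RSEM estimated counts per gene and cell for 60 cells that passed their quality control. RSEM shares reads between similar genes, so counts of paralogs are uncertain, and PCR copies were not collapsed because the protocol adds no molecular identifiers. The tool versions and the annotation are not given in the sources used here. The authors also deposited a BASiCS signal table scaled with the spike-ins (13951 genes), used here only as an alternative.

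The count table held 47825 entries: 47729 mouse genes (47224 matched to a symbol of GENCODE), 92 spike-ins and 4 transgenes. Of the values above 0, 96.6% were whole, and the rest were rounded. CPM were computed on mouse genes. Each group's counts were added up across its cells and compared as log2((CPM + 1)/(CPM + 1)), so ratios of low genes are understated. Genes of a list entered with 1 CPM or more in a group. Intervals are exact (Poisson for sums, Clopper-Pearson for shares). Those for sums cover counting error only, and those for shares take cells as independent draws. Each group is 1 pooled sample, so no test was run. The script was tested on simulated data. Named genes were the members of 23 pathway and cell cycle lists and 11 cell type lists, and by size the 15 highest and 15 lowest ratios that stayed past 2-fold with any 1 cell left out, plus 10 and 10 from the same rule without wells holding 7 or more of 13 macrophage markers. The members and lists were chosen with earlier results of these data known. A gene that the study names and some list members are not reported here. No doublet caller was run, since cells were sorted 1 per well. Python 3.11.15, numpy 2.4.6, pandas 2.3.3, scipy 1.17.1, matplotlib 3.10.9 and R 4.3.3 were used, and only scaling factors came from edgeR 4.0.16 and DESeq2 1.42.0. Alternatives covered scaling, pseudocount, filters, the Gas6 threshold, depth, marker-bearing wells, cell numbers in the labels and leaving out each cell.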

Additional observations from a re-analysis of the deposited data

Results flagged for a closer look

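Gas6 counts appeared in DiD+ cells that the comparison left out. Cell 19 held 4 counts and cell 80 held 4 counts, each above the 3 counts that a cell at 0 still allows. Cell 19 was a macrophage well with all 13 markers and cell 80 held 1 of them. The part of macrophage RNA in these counts was not tested. After thinning to 2200000 counts both cells kept 1 count, so neither call is firm at that depth.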

How the results depend on the processing

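No paired analysis was possible because cells carry no number that links a Gas6-positive with a Gas6-negative cell. The 451 genes past 2-fold higher became 152 with spike-in scaling, 209 with a pseudocount of 10 CPM, 971 and 905 in cells numbered below and above 50, 846 as medians over cells and 417 to 576 with 1 cell left out. The 585 lower became 1640, 271, 1779 (above 50), 1615 (medians) and 521 to 754. Spike-in scaling shifted the median of all genes to -0.49, which shows in its counts. The S phase median (-0.36) turned to 1.04 in cells numbered above 50, and was -3.55 there without cell 82 and -1.55 to -0.034 with 1 cell left out. The G2/M median (-1.69) was -2.04 as a mean of single cells, -2.52 with spike-ins, -2.10 with BASiCS values, -1.38 above 50 (-6.45 without cell 82), -1.15 as medians and -2.0 to -1.39 with 1 cell left out. The dormancy median (1.53) was 1.07 with all cells below 10 Gas6 counts as negative and 1.12 to 1.96 with 1 cell left out. The medians over cells, the settings without cell 82 and the exclusion of macrophage and megakaryocyte wells from the Gas6-positive group only were chosen after seeing the data.

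Other results turned as follows, and the cause was not tested. Under that exclusion, the complement list (1.55) was at -3.97, macrophage markers (1.52) at -3.65, B and plasma cell markers (1.05) at -0.49, osteoblast markers (1.12) at -0.082 and Mertk (1.26) at -2.79. Mertk was at -2.55 without macrophage wells and equally without all wells with most markers of another cell type, -3.41 above 50 and -2.75 to 2.15 with 1 cell left out. Erythroid markers (-8.95) were at 1.93 and 2.05 without those wells. Osteoblast markers were at -0.23 without wells of other cell types and -0.24 to 1.39 with 1 cell left out. Above 50, macrophage markers were at -0.12, Tchp at -0.25 and Sparcl1 at -0.71. Thbs1 was at -0.37 with spike-ins and -1.73 as medians. Of the 30 genes named by size, 1 (Tchp) changed sign in 48 settings. These genes were named only if past 2-fold with any 1 cell left out. The leave-one-out settings therefore could not change their sign. The 3 Gas6-positive cells numbered above 50 limit that split, and the labels do not say what the numbers mean. Depth limits genes near 1 CPM.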

Other observations

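Feedback inhibitors of ERK signaling had a median log2 ratio of -0.03 over 12 genes, or -0.04 without the macrophage wells. Of these, 3 lay past 2-fold higher in Gas6-positive cells and 2 past 2-fold lower (25% and 16.7%, against 14.4% and 12.9% of all genes). Spry1 was at 291 against 49.3 CPM, Dusp6 at 884 against 338 CPM (1.39, 0.96 to 1.56 with any 1 cell left out) and Spry4 at 42.02 against 12.7 CPM (1.65, 1.27 to 1.98). Dusp4, another member, was lower at 5.19 against 14.1 CPM. Cell 41 held 37.9%, 33.2% and 31.5% of the Gas6-positive counts of Spry1, Dusp6 and Spry4.

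Immediate early genes had a median log2 ratio of 0.25 over 15 genes (0.03 to 0.36), or 0.35 without the macrophage wells. Klf6 was at 1049 against 529 CPM (0.99), Fosb at 199.5 against 86.5 CPM (1.197) and Atf3 at 767 against 323 CPM, a ratio of 1.25 that was 0.09 without cell 29. Egr1 was at 1053 against 1606 CPM. Ribosomal protein genes were slightly lower, 36 of 38, with 0 past 2-fold (median -0.25, or -0.31 without the macrophage wells). Lysosome and autophagy genes had a median of 0.27, hypoxia and glycolysis genes of -0.20, and genes of epithelial-mesenchymal transition of -0.23, which without those wells were 0.13, -0.16 and -0.21. Genes for the uptake of apoptotic cells had a median of 0.16 over 22 genes, with 7 past 2-fold higher and 2 lower (31.8% and 9.09%, against 14.4% and 12.9% of all genes). Leaving out the macrophage wells gave a median of 0.03 over 19 genes with 3 past 2-fold in each direction (15.8%), near the 13.3% and 15.3% of all genes. Among them Cd36 (50.04 against 5.14 CPM) and Stab1 (35.1 against 5.45 CPM), scavenger receptors, drew 61.0% and 75.5% of their Gas6-positive counts from cell 24, a macrophage well. Complement genes had a median of 1.55 over 10 genes (1.36 over 5 genes without those wells), of which C1qa, C1qb and C1qc are also macrophage markers.

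Of the study's 4 genes named for DiD- cells, 2 reached 1 CPM in either group. Their median was -0.50, which moved to -3.88 when the macrophage wells were left out. Bcat1 was at 18.9 against 31.7 CPM (-0.71), and cell 24, a macrophage well, held 92.1% of the Gas6-positive counts. Bcat1 was at 0 against 35.8 CPM once those wells were left out. Kcnab2 was at 6.33 against 7.95 CPM (-0.29), with 80.98% of the Gas6-positive counts in cell 24, and its ratio was -2.56 without those wells. Markers of other cell types gave medians of 0.24 for neutrophils (1 gene), -0.30 for megakaryocytes and platelets (3 genes), 0.17 for endothelium and 0.85 for osteoclasts (2 genes each). With the macrophage wells left out, these were -0.73 for megakaryocytes and platelets (1 gene), -0.78 for endothelium (2 genes) and -1.22 for osteoclasts (1 gene), no neutrophil marker reached 1 CPM, and with all cells no T or NK cell marker reached 1 CPM in either group.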
